A study of Macaca fascicularis with 132 samples.

Results

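Peripheral blood mononuclear cells, the lymphocytes and monocytes of blood, were taken from cynomolgus macaques (Macaca fascicularis) and held in culture for 48 h with or without interleukin-15 (IL-15). The comparison described here took all libraries labelled as IL-15 at 48 h and all labelled as control at 48 h, 24 libraries with 12 on each side and 2 of the 11 groups of the series. Treated cultures received 40 ng/ml of the heterodimer of IL-15 and the alpha chain of its receptor, and controls are labelled 0 ng/ml. The same 4 animals, 38142 and 38155 (female) and 38147 and 38157 (male), gave both sides, with 3 libraries for each animal and treatment. The labels give no age, no cell numbers and no genotype, and do not say whether the 3 libraries came from separate cultures. The counts of these 3 libraries were therefore summed, which gave 4 pairs of sums. The remaining libraries were control cultures from 0 to 24 h and IL-15 cultures from 2 to 24 h of the same animals.

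IL-15 is a cytokine that natural killer cells and memory CD8+ T cells depend on for survival and proliferation. It is presented on the alpha chain of its receptor to neighbouring cells, whose beta chain and common gamma chain pass the signal through JAK kinases to STAT5. Activated STAT5 changes transcription directly, and later changes in RNA can follow from proteins made in response, from cell division and from the loss or survival of cell types. In RNA from a mixed cell population, fewer cells of a type and less RNA per cell cannot be told apart. The deposited tables name genes by Ensembl ID, and 0 of these IDs matched a symbol in the reference table used here. Genes are therefore described as groups, by direction, size, read depth, time and animal, and only 4 IDs are printed. Markers of blood cell types could not be looked up for the same reason, so the labelled cell type was not checked and the part of cell composition in any result was not tested.

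The 24 libraries held 17923728 to 40469176 counts each, with 16834 to 20352 genes detected. Their sums held 84887910 ± 11097380 counts with IL-15 and 82176171 ± 15637818 in controls (SD, n = 4 animals). The distance of each library to the nearer of its sister libraries was measured as a root mean square log2 difference over 10101 genes that averaged 5 CPM or more, where CPM is a count scaled to the library's depth. The median at 48 h was 0.231. Library 1 of the control culture of animal 38142 stood apart at 0.948, against a limit of 0.408, and also had the fewest detected genes. It was kept, and the main values are also given without it. Without it, 3699 genes were called higher and 3722 lower in the comparison described next, close to the counts with it.

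At 48 h, 3681 of 18197 tested genes were higher with IL-15 (20.2%) and 3635 were lower (20%), by edgeR's quasi-likelihood test on the paired sums with a Benjamini-Hochberg adjusted p under 0.05. A change of 2-fold or more (1 on the log2 scale) was found in 1058 genes that rose (5.81%) and 1206 that fell (6.63%). Genes averaging under 1 CPM at 48 h made up 275 of these rises and 669 of these falls. Genes that rose did so by a median of 0.58 on the log2 scale, and genes that fell had a median of -0.74. The median over all tested genes was -0.05. In 14 of the higher genes the 4 control sums held at most 3 counts in all, and in 19 of the lower genes the 4 IL-15 sums did, so their fitted fold changes rest on the prior count and are no bounds. The balance between directions depended on how libraries were scaled. With the default scaling (TMM), 50.3% of the called genes were higher, but with upper-quartile scaling 35.9% were, with 2768 higher and 4944 lower. Upper-quartile scaling moved the median of all genes to -0.15.

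Most called genes moved the same way in every animal. Of the 3681 higher genes 93% had a positive log2 fold change in 4 of 4 animals, and of the 3635 lower genes 91.4% had a negative one in 4 of 4. Among the 10881 genes that did not pass the test, 26.8% had 1 sign in all animals. The 4 IL-15 sums lay clear of the 4 control sums, with no overlap between groups, for 56.4% of the higher and 38.8% of the lower genes, against 3.19% of the genes not called and 21.1% of all tested genes. Without control library 1 of animal 38142 these shares were 62.4%, 43.7% and 3.98% of the genes called higher, lower and not at all. These signs and overlaps come from the sums that made the calls, so they describe the calls and are not a second test of them.

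**Figure D1:**
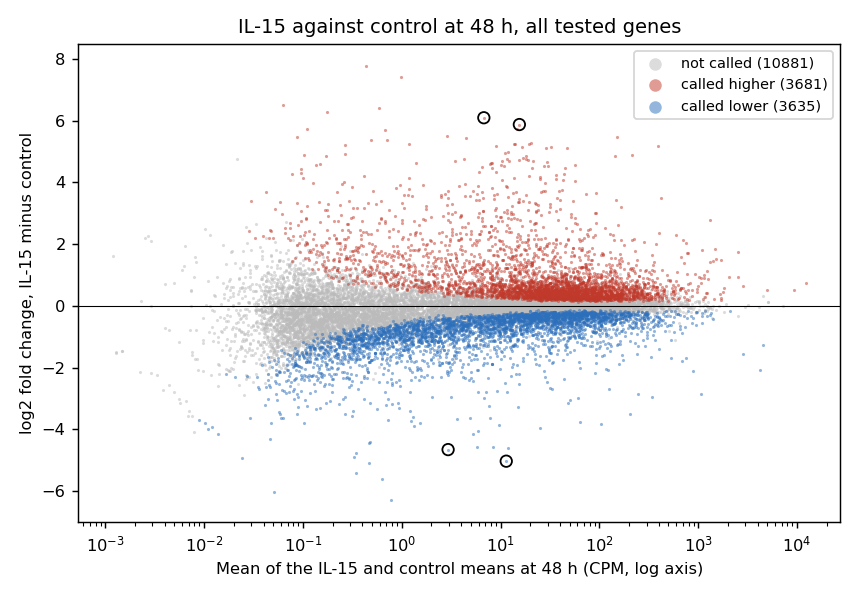
Each point is a tested gene, placed by the mean of its IL-15 and control means at 48 h (CPM, log axis) and its log2 fold change (IL-15 minus control); red points were called higher (3681), blue points lower (3635), grey points neither, and circles mark the 4 printed IDs. Called genes with a mean under 5 CPM lie mostly below 0.

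The direction of the called genes differed with read depth, which is given here as the mean of the IL-15 and control means in CPM and is not corrected for gene length. Of the 5562 genes under 1 CPM, 5.83% were called higher and 15.7% lower. From 1 to 5 CPM the shares were 14.6% higher and 31.1% lower. From 20 to 100 CPM they were 31.4% higher and 18.2% lower, and the 236 genes at 500 CPM or more gave 32.6% and 18.2%. The excess of lower calls under 5 CPM was present under all 3 scalings tried. The excess of higher calls above 20 CPM was not, since upper-quartile scaling turned it round, to 22.2% higher and 27.1% lower from 20 to 100 CPM and 26.7% and 30.5% at 500 CPM or more. The standard error of a gene's log2 fold change also fell with depth, from a median of 0.49 under 1 CPM to 0.10 at 500 CPM or more.

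The genes with the greatest rises were a group of 425 genes that were at least 4-fold higher with IL-15, a log2 fold change of 2 or more. Their median was 11 CPM with IL-15 and 1.07 CPM in controls, beside 1.15 CPM at 0 h, before culture. Together they took 2.76%, 1.77%, 2.67% and 1.79% of all counts in the IL-15 sums of animals 38142, 38147, 38155 and 38157. In the control sums of the same animals they took 0.378%, 0.294%, 0.449% and 0.407%, and at 0 h 0.540%, 0.541%, 0.438% and 0.534%. The genes were chosen for being higher with IL-15 in these sums, so an IL-15 share above the control share follows from the choice. The IL-15 share also stood above that of 0 h in each animal, which the choice favours too. The control share lay below that of 0 h in animals 38142, 38147 and 38157 and close to it in 38155. All 1058 genes that rose at least 2-fold, chosen in the same way, took 6.6% to 8.99% of the counts with IL-15 and 2.37% to 3.12% in controls.

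The genes with the greatest falls showed another order of the same 3 conditions. For the 257 genes at least 4-fold lower with IL-15, the median was 0.0845 CPM with IL-15, 0.508 CPM in controls and 0.160 CPM at 0 h. They took 1.87%, 2.43%, 0.629% and 1.21% of the counts in the control sums of animals 38142, 38147, 38155 and 38157. At 0 h they had taken 0.160%, 0.169%, 0.130% and 0.178%. With IL-15 they took 0.260%, 0.651%, 0.0680% and 0.338%, above the 0 h share in 3 of 4 animals and below it in animal 38155. The median gene did not share this rise, with 0.0845 CPM with IL-15 below 0.160 CPM at 0 h. A share of counts is weighted towards the most abundant genes of a group. A control share above the IL-15 share follows from the choice of these genes. The control share also lay above that of 0 h in each animal, which the choice favours too. The control shares ranged widely between animals. Without control library 1 of animal 38142, this group held 264 genes, with 1.75% in that animal's control and 0.261% with IL-15.

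**Figure D2:**
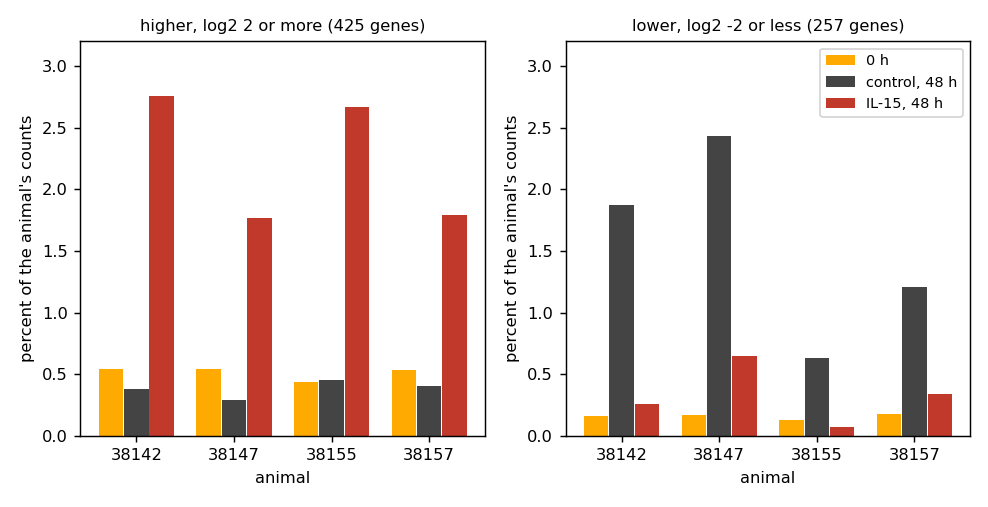
Bars give the percent of an animal's counts (summed over 3 libraries) taken by the 425 genes at least 4-fold higher (left) and the 257 genes at least 4-fold lower (right) with IL-15 at 48 h, before culture (0 h, yellow), in control culture (dark grey) and with IL-15 (red). On the left the IL-15 bar is the tallest in each animal, and on the right the control bar is, at 0.629% to 2.43%. The genes were chosen by the difference between IL-15 and control in these sums, so the order of those bars follows from the choice. The choice also favours the taller of them over 0 h.

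The position relative to 0 h was also counted by test. These tests share their sums with the comparison at 48 h, so they stand side by side only. Over all tested genes, 5976 were higher (32.8%) and 4899 lower (26.9%) in control culture at 48 h than at 0 h, and 6210 were higher (34.1%) and 5537 lower (30.4%) with IL-15. Of the 425 genes at least 4-fold higher with IL-15, 17.4% had risen and 28.5% had fallen in control culture, whereas 88.7% had risen and 2.82% had fallen in IL-15 culture. Of the 257 genes at least 4-fold lower, 57.2% had risen and 10.5% had fallen in control culture, and 21.4% had risen and 40.9% had fallen with IL-15. For all 3635 lower genes the shares were 46.3% risen and 20.3% fallen in control culture, and 18.5% risen and 50% fallen with IL-15. Genes not called at 48 h were 28.5% risen and 28% fallen in control culture.

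The cultures as a whole were compared by their distance from the 0 h sample of the same animal, the root mean square log2 difference over 10101 genes. With IL-15 it was 1.29, 1.27, 1.29 and 1.10 in animals 38142, 38147, 38155 and 38157. In controls it was 1.12, 1.26, 1.11 and 1.02. The IL-15 culture was the farther in 4 of 4 animals, by very little in animal 38147, and the ranges of the groups overlapped. Without its control library 1, animal 38142 had a control distance of 1.08. The means were 1.24 ± 0.0886 and 1.13 ± 0.0979 (SD, n = 4), with p = 0.125 in a two-sided exact sign-flip permutation test, the smallest p that 4 pairs allow. Genes at 1 CPM or more were fewer with IL-15 in 4 of 4 animals, at 12339, 12363, 12296 and 12406 against 12508, 12618, 12479 and 12546. Here the groups did not overlap, and the exact test again gave its smallest p of 0.125. At 0 h the number was 12455 ± 52.8. The counts were spread over more genes in both cultures than before culture. The number of genes that held 50% of the counts was 831.5 ± 12.2 with IL-15 and 846.8 ± 39.3 in controls, against 588.8 ± 16.3 at 0 h. This number was higher with IL-15 in 2 of 4 animals (exact sign-flip p = 0.625). With 4 pairs that test cannot give a p under 0.125, so it does not show that the cultures were alike.

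The printed IDs are those with the 2 highest and the 2 lowest log2 fold changes among called genes that moved 1 way in 4 of 4 animals and averaged 5 CPM or more in the higher group. The pool held 2901 higher and 1956 lower genes. The IDs were chosen for their size in this comparison, so their fold changes and p at 48 h describe the choice. The p printed below come from the fit to all groups. In edgeR's fit on the sums of 48 h alone, the adjusted p of the IDs were 0.00016, 0.0014, 0.014 and 0.00095, in the order below.

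ENSMFAG00000001680 had 19.6, 12.2, 13.7 and 7.94 CPM with IL-15 in animals 38142, 38147, 38155 and 38157, and 0.279, 0.107, 0.206 and 0.214 CPM in controls. The lowest of its 12 IL-15 libraries held 5.31 CPM and the highest of its 12 control libraries 0.692 CPM, so the groups were far apart in single libraries too. Its log2 fold change was 6.09 ± 0.44 (SE; edgeR adjusted p = 1.6e-13). Before culture it had 0.581 ± 0.139 CPM (SD, n = 4). The gene rose late in the IL-15 cultures, from 0.684 ± 0.185 CPM at 12 h to 1.98 ± 0.765 at 24 h and 13.4 ± 4.84 at 48 h. At 6 h its log2 fold change against control was 0.97, which did not pass the test (adjusted p = 0.13). It was called from 12 h on, with 1.75 (adjusted p = 0.0015) and then 3.89 by 24 h (adjusted p = 1.6e-08). The effect at 48 h exceeded that at 24 h by 2.20 ± 0.61 on the log2 scale (adjusted p = 0.037).

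ENSMFAG00000035541 followed the same course at a greater read depth. It had 41, 29.2, 34.2 and 17.7 CPM with IL-15 and 0.346, 0.166, 0.895 and 0.673 CPM in controls, in the same order of animals. Single libraries ranged from 12.4 to 46.6 CPM with IL-15 and from 0.106 to 1.03 CPM in controls, without overlap. The log2 fold change was 5.87 ± 0.39 (edgeR adjusted p = 1.7e-14). The IL-15 level was 1.46 ± 0.456 CPM at 12 h, 4 ± 1.28 at 24 h and 30.5 ± 9.86 at 48 h (SD, n = 4), beside 0.982 ± 0.443 at 0 h. Its effect exceeded that at 24 h by 2.02 ± 0.51 (adjusted p = 0.017). In both IDs animal 38157 had the lowest IL-15 level and animal 38142 the highest.

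ENSMFAG00000046257 had the lowest log2 fold change among the called genes of 1 direction that averaged 5 CPM or more in the higher group, -5.03 ± 0.68 (edgeR adjusted p = 4.4e-07). In controls it had 37.5, 36.2, 6.92 and 5.83 CPM in animals 38142, 38147, 38155 and 38157, and 0.221, 4.48, 0 and 0.298 CPM in IL-15 culture. Animals 38142 and 38147 were thus high in control culture, and animal 38147 alone kept more than 1 CPM with IL-15. The 3 IL-15 libraries of animal 38155 held 0 counts. Single libraries overlapped slightly between groups, since the highest IL-15 library had 4.73 CPM (animal 38147) and the lowest control library 4.44 CPM (animal 38157). Within each animal they did not overlap. The gene was almost unread before culture, at 0.0258 ± 0.0363 CPM, and in control culture reached 0.593 ± 0.452 CPM at 12 h, 4.27 ± 3.65 at 24 h and 21.6 ± 17.6 at 48 h. In IL-15 culture it stood at 0.646 ± 0.823 CPM at 24 h and 1.25 ± 2.16 at 48 h. The effect at 48 h was not shown to differ from that at 24 h (difference -1.95 ± 0.86, adjusted p = 0.27).

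ENSMFAG00000052498 had 7.23, 12.3, 1.2 and 1.68 CPM in the controls of the 4 animals in the same order and 0.166, 0.900, 0.0108 and 0.134 CPM with IL-15. The fitted difference was -4.66 ± 0.61 (edgeR adjusted p = 2e-07). Again the controls of animals 38142 and 38147 were the highest. Single libraries overlapped slightly between groups, with up to 1.18 CPM with IL-15 and down to 0.967 CPM in controls, but not within an animal. Unlike the preceding ID it was read before culture, at 2.09 ± 2.32 CPM with 0.183 to 5.43 CPM among animals. In control culture it stood at 0.610 ± 0.594 CPM at 24 h and 5.60 ± 5.22 at 48 h, a log2 difference of 3.57 ± 0.56 (adjusted p = 0.00014). With IL-15 it stood at 0.0615 ± 0.0852 CPM at 24 h and 0.303 ± 0.404 at 48 h. That log2 difference was 2.36 ± 0.83 and did not pass the test (edgeR adjusted p = 0.053). The difference between the effects at 48 h and 24 h was -1.21 ± 1.08 (adjusted p = 0.68).

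**Figure D3:**
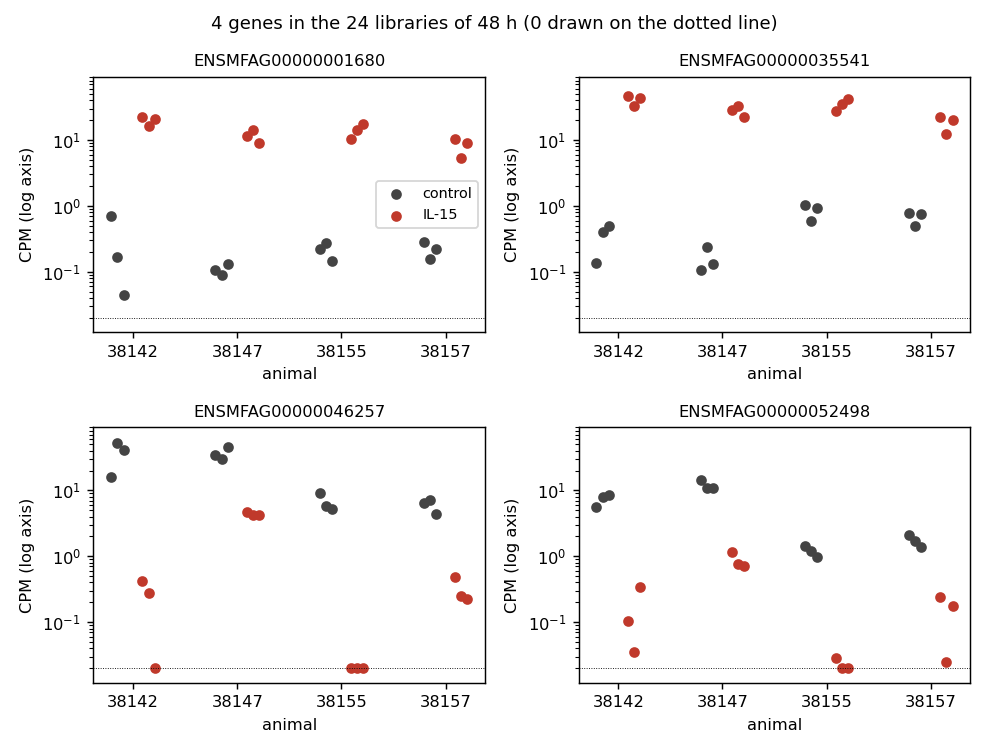
Each panel shows 1 gene in the 24 libraries of 48 h, grouped by animal on the horizontal axis, with CPM on a log axis; dark grey points are control libraries, red points IL-15 libraries, and a library with 0 counts is drawn on the dotted line. Red lies above grey in all animals for ENSMFAG00000001680 and ENSMFAG00000035541 and below it in all animals for ENSMFAG00000046257 and ENSMFAG00000052498.

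The effects at earlier times came from other libraries of the same animals. Those libraries shared 1 fit with the test at 48 h, and a fit on the sums of 48 h alone called 3061 genes higher and 3335 lower of 16356. Over all tested genes, the 2 h test called 1.67% higher and 0.495% lower. The shares were 5.12% and 3.54% in the 6 h test and 17.5% and 14% in the 12 h test. Of the 3681 higher genes, 158 were already called higher at 2 h. This number was 661 by the 6 h test, 1922 by the 12 h test and 2520 by the 24 h test. Sorted by the earliest call, 564 genes joined with the 6 h test, 1269 with that of 12 h and 643 with that of 24 h, and 1047 (28.4%) were called first at 48 h. Of the 3635 lower genes, 51 were called lower at 2 h. The 6 h test gave 456, the 12 h test 1470 and the 24 h test 2235, and 1258 (34.6%) were called first at 48 h. Calls in the opposite direction were few, the most being 71 of the higher and 58 of the lower genes at 12 h. At 24 h, 3644 genes were called higher (20%) and 3453 lower (19%) among all tested, of which 69.2% and 64.7% were called the same way at 48 h. A gene called first at 48 h may have had an effect of the same size before that missed the threshold, so these counts do not date the onset.

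In the genes with the greatest changes at 48 h, the sizes of the effects rose with time. For the 425 genes at least 4-fold higher at 48 h, the median log2 fold changes at 2, 6, 12, 24 and 48 h were 0.04, 0.17, 0.72, 1.72 and 2.86. For the 257 genes at least 4-fold lower they were -0.10, -0.37, -0.96, -1.86 and -2.45. The last value of each series was used to choose the genes and lies away from 0 for that reason. That choice also favours series that rise towards 48 h and leaves out genes whose effect was large only earlier. At 2 h the medians were near 0 in both groups.

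**Figure D4:**
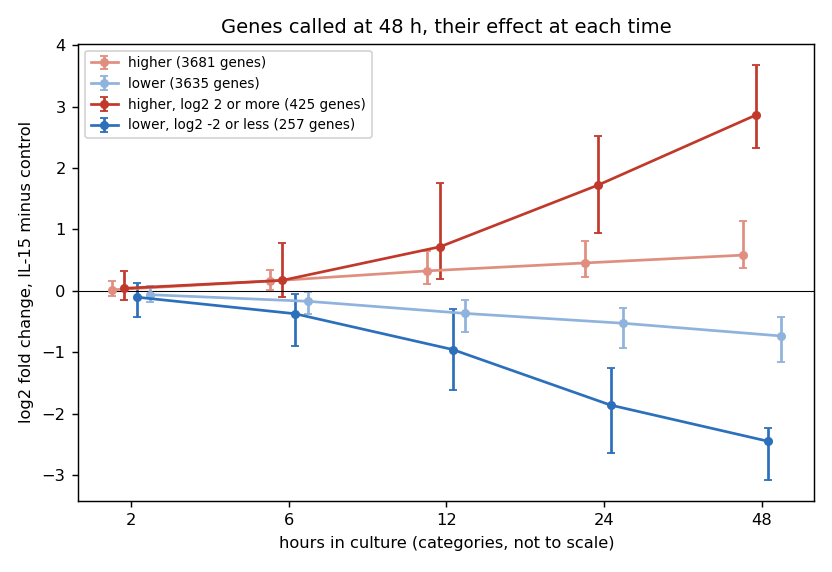
Points are the median log2 fold change (IL-15 minus control) at each time of the genes called higher or lower at 48 h and of those that also changed at least 4-fold, and bars span the first to the third quartile over genes; the time axis shows categories. Medians of the 425 and 257 genes move away from 0 between 6 h (0.17 and -0.37) and 24 h (1.72 and -1.86).

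Whether the effect at 48 h differed from earlier effects was tested directly by the interaction contrast. A greater or smaller effect is meant by sign, so a deeper fall counts as a smaller effect and a shallower fall as a greater one. Against 2 h, the log2 effect was greater in 2190 genes (12%) and smaller, or more negative, in 1788 (9.83%). With upper-quartile scaling these counts were 1596 and 2554, and the share of greater effects changed from 55.1% to 38.5%. Against 12 h it was greater in 1050 genes (5.77%) and smaller in 847 (4.65%). Against 24 h it differed in 551 genes, of which 420 had a greater effect (2.31% of those tested) and the rest a smaller, or more negative, one (0.72%). When control library 1 of animal 38142 was left out, 451 effects were greater and 182 smaller than at 24 h, and 1189 and 1060 than at 12 h. The 24 h contrast depended on single animals. Without animal 38142 the counts were 225 and 11, without animal 38147 252 and 60, and without animal 38155 278 and 54. Without animal 38142 the 12 h counts were 526 and 236 and the 2 h counts 1021 and 842, without animal 38155 the 12 h counts were 607 and 348, and without animal 38157 the genes with a smaller effect than at 12 h numbered 549. A block for each animal and time, in place of the animal, gave 768 genes with a greater and 404 with a smaller effect than at 24 h.

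The 551 genes were sorted by their call at 48 h. Of these, 378 were higher at 48 h with a greater rise than at 24 h, 66 were lower with a greater fall, 10 were higher with a smaller rise, 4 were lower with a smaller fall, and 93 were not called at 48 h. The median effect of the 378 genes was 0.03 on the log2 scale at 12 h, 0.49 at 24 h and 1.62 at 48 h, and 208 of them were called higher and 14 lower at 24 h. In the IL-15 cultures their median log2 difference between 48 h and 24 h was 1.11, and 362 passed that test as higher and 0 as lower. In control cultures the median was 0.02, with 3 higher and 15 lower. The median level went from 10.7 to 26.2 CPM with IL-15 and from 6.75 to 6.57 CPM in controls. In single animals the IL-15 medians were 1.18, 1.07, 1.33 and 0.75 and the control medians 0.0132, -0.133, 0.0632 and -0.0303 for 38142, 38147, 38155 and 38157. By these medians, the difference lay in the IL-15 cultures of all 4 animals. Both changes are parts of the contrast that chose the 378 genes, so they describe it and are no further test.

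The 66 genes lower at 48 h with a greater fall than at 24 h drew on both cultures. Their median log2 difference between 48 h and 24 h was 0.60 in control cultures, where 36 passed the test as higher and 0 as lower. In the IL-15 cultures it was -0.28, with 3 higher and 24 lower. By animal the control medians were 0.503, 0.859, 0.449 and 0.513 and the IL-15 medians -0.416, -0.145, -0.316 and -0.203. Median levels went from 23.7 to 40.4 CPM in controls and from 25.6 to 24.8 CPM with IL-15. The changes within each culture are the parts of the contrast that chose these genes, so they describe it. Without control library 1 of animal 38142 the 2 groups held 399 and 91 genes, with medians of 1.02 (IL-15) and -0.01 (control) in the first and -0.27 and 0.50 in the second.

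**Figure D5:**
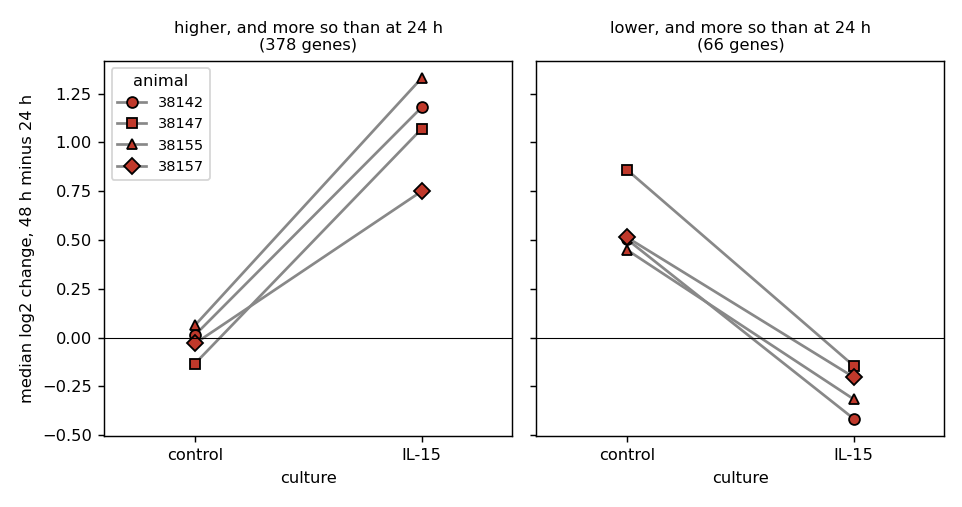
Each marker is the median log2 change from 24 h to 48 h over a group of genes in 1 animal, in control culture and in IL-15 culture, joined by a line per animal; the left panel holds the 378 genes that were higher at 48 h and more so than at 24 h, the right panel the 66 that were lower and more so. On the left the control medians lie near 0 (-0.133 to 0.0632) and the IL-15 medians at 0.75 to 1.33; on the right the control medians lie at 0.449 to 0.859.

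Over all genes, the IL-15 cultures at 48 h had 1553 genes higher (8.53%) and 930 lower (5.11%) than at 24 h, and the control cultures 386 (2.12%) and 290 (1.59%). With upper-quartile scaling the share of higher genes among the IL-15 calls went from 62.5% to 52.5%, with 1355 higher and 1225 lower. These counts also depended on single animals. Without animal 38142 they were 764 and 243 with IL-15 and 141 and 47 in controls. Without animal 38155 the IL-15 counts were 881 and 428. Without animal 38147 the IL-15 cultures had 577 lower genes, and the control cultures had 226 called genes, 94 of them lower. The root mean square log2 distance between 24 h and 48 h was 0.491, 0.438, 0.532 and 0.342 with IL-15 and 0.443, 0.434, 0.439 and 0.307 in controls, in the order of animals used above. It was greater with IL-15 in 4 of 4 animals (exact sign-flip p = 0.125, the smallest possible), with overlapping ranges. Without its control library 1, animal 38142 had a control distance of 0.386.

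The size of the fold changes varied between animals, which was not tested. Spread among libraries also adds to this size. The root mean square log2 fold change over 10101 genes was 0.825 in animal 38142, 0.716 in 38147, 0.702 in 38155 and 0.605 in 38157. The value of animal 38142 was 0.859 without control library 1. Across those genes the fold changes of any 2 animals correlated with Pearson's r from 0.723 (38147 and 38155) to 0.883 (38142 and 38157), and to 0.854 for the latter pair without that library. Genes are not independent replicates, and the libraries of an animal share its cells. Of the sum of squares among the 24 libraries over these genes, 39.8% lay between animals and 35.6% between treatments. A further 6.64% lay in the difference of the treatment effect between animals and 17.9% among libraries of 1 animal and treatment. These shares are not divided by degrees of freedom, which are fewest for treatment and most for libraries, so their order does not rank the terms. They include control library 1 of animal 38142. The SD of log2 CPM between animals had a median of 0.188 with IL-15 and 0.217 in controls. Without control library 1 of animal 38142 the control value was 0.177, below that with IL-15, so no order of the groups can be read from it.

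Tested on 3 against 3 libraries in 1 animal, which compares those libraries, the counts varied. Animal 38155 had 3875 genes higher (26.5%) and 3587 lower (24.5%). Animal 38147 had 2987 (20.9%) and 3059 (21.4%), and animal 38157 had 1882 (12.9%) and 1560 (10.7%). Animal 38142 had 1043 (7.45%) and 802 (5.73%), and without its control library 1 it had 2697 and 2382. That library thus decided whether animal 38142 had the fewest calls. Genes called higher in 1 animal had a positive fold change in all of the other 3 animals in 91.3% of cases for 38142, 76.9% for 38147, 81.7% for 38155 and 86.1% for 38157. For genes called lower the shares were 88.4%, 76.6%, 73.3% and 85.3%. Among genes not called in the animal, 54%, 45.1%, 37.9% and 49.8% had its sign in the other 3. In all 4 animals singly, 729 genes were called higher and 462 lower, of 13472 genes tested in each.

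The treatment effect differed between animals in 1688 of 14122 genes (12%), by edgeR's test of the animal by treatment term over the 24 single libraries. Its spread is that among the 3 libraries of an animal. Without control library 1 of animal 38142 the count was 2987 of 14196 genes. Of the 1688 genes, 848 had effects of 1 sign in all 4 animals and differed in size, and 840 had both signs. The highest and the lowest effect among the animals lay a median of 1.28 apart on the log2 scale in the 1688 genes. A single animal far against the other 3 was rare. Splits of 2 animals against 2 were not counted, nor were genes in which 1 of the animals lay near 0. Of 10101 genes, 15 had a fold change of at least 0.5 on the log2 scale in animal 38147 against the direction of the other 3 animals, each also by at least 0.5. The numbers for 38142, 38155 and 38157 were 2, 8 and 3. By contrast, 714 genes were higher and 422 lower by at least 0.5 in each of the 4 animals. The effect was called different between the 2 females and the 2 males in 3 of 16356 genes (0.0183%) by edgeR on the 8 sums, with 943 at an unadjusted p under 0.05. With 2 animals of each sex, sex and other differences between these animals cannot be told apart.

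The columns of the tables bear name tokens of unstated meaning, which were not spread evenly over the treatments. The token pair Lib2 GL75 marked 4 IL-15 libraries and 1 control library, and Lib1 GL75 marked 3 and 6. With the token as a term in a fit on the single libraries, 3476 genes were higher and 3787 lower of 14122. The same fit without the token gave 3773 and 4192. Of the 4 token sets that held both treatments, Lib1 GL75 held the most libraries, and in it ENSMFAG00000001680 ranged from 8.96 to 14 CPM with IL-15 and from 0.0882 to 0.224 CPM in controls. ENSMFAG00000046257 in the same set ranged from 0 to 4.24 CPM with IL-15 and from 4.44 to 52.4 CPM in controls.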

How the data were processed

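The authors deposited 2 tables of raw counts per gene for the same libraries, with 38550 cynomolgus and 35432 rhesus gene IDs. Per the labels' protocols, RNA came from Qiagen RNeasy kits and libraries from the KAPA mRNA HyperPrep kit. For aligner, counter, genome build and annotation the entry is: not given in the sources used here. Results come from the cynomolgus table, and the rhesus table was an alternative. Columns matching no sample numbered 0.

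Counts of 3 libraries were summed per animal and group, giving 44 sums of 11 groups. The test was edgeR 4.0.16's quasi-likelihood test in R 4.3.3 (TMM, filterByExpr on groups, robust, animal as a term, Benjamini-Hochberg adjusted p under 0.05). Log2 CPM used a prior count of 2, and distances and fold changes of single animals used genes averaging 5 CPM or more. Means of sums carry the SD over animals. The labels give the same animals in both groups, and the sums of 1 animal deviated together (r at least 0.604, median 0.699, 4 of 4 pairs above 0.1). No 2 sister libraries agreed within sampling noise (chi-square per degree of freedom at least 6.42). Amplified reads are not independent molecules. If sister libraries are technical, tests on single libraries measure only technical spread. DESeq2 1.42.0 and limma 3.58.1 served as alternatives. Only the test of IL-15 against control at 48 h was run on simulated counts with known changes.

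IDs were printed by a rule: an average of 5 CPM or more in the higher group, an adjusted p under 0.05 and 1 direction in 4 of 4 animals, then the 2 highest and 2 lowest log2 fold changes. Gene lists by symbol were not run. The comparison, its gene groups and tests were chosen with earlier results of these data known. The test between animals and the token term were added after seeing the data.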

Additional observations from a re-analysis of the deposited data

Results flagged for a closer look

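Of 25 groups of 4 animals examined for a sample far from the others, 3 stood out by Dixon's test, which flags about 1 group in 20 by chance. ENSMFAG00000046257 with IL-15 had 4.48 CPM in animal 38147, where the other 3 animals had 0 to 0.298 CPM. The root mean square log2 distance to 0 h with IL-15 was 1.10 in animal 38157, below 1.27 to 1.29 in the others. The distance of the control culture between 24 h and 48 h was 0.307 in animal 38157, below 0.434 to 0.443 in the others. Without control library 1 of animal 38142 that animal's distance was 0.386.

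The IL-15 effect at 48 h differed from the effect at an earlier time, by edgeR's interaction contrast, in 551 genes against 24 h, 1897 against 12 h and 3978 against 2 h. For ENSMFAG00000001680 the effect exceeded that at 24 h by 2.20, at 12 h by 4.34 and at 2 h by 5.86 on the log2 scale. For ENSMFAG00000035541 these differences were 2.02, 4.34 and 5.71. For ENSMFAG00000046257 the difference was -3.92 against 12 h and -4.83 against 2 h, and for ENSMFAG00000052498 it was -2.94 and -4.23. All 4 IDs were chosen for their size at 48 h.

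The effect at 48 h differed between animals in 1688 genes over single libraries, and between females and males in 3 genes over sums, a count that was 0 by limma (880 at an unadjusted p under 0.05).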

How the results depend on the processing

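No gene called at 48 h was called in the opposite direction under any of 20 alternatives on the cynomolgus table. A change of sign without a call was not counted. Under all of these alternatives 1601 higher and 826 lower genes passed. The rhesus table gave 3308 higher and 3935 lower of 17044 genes. Leaving out 1 animal at a time gave 2532 to 3374 higher and 2462 to 3244 lower calls at 48 h, of which 2179 and 1903 passed every time, and 840 to 1037 higher and 935 to 1221 lower by at least 2-fold. The effect then differed from that at 24 h in 236 to 532 genes, at 12 h in 762 to 1614 and at 2 h in 1863 to 3398, and 1007 to 2109 genes differed from 24 h in IL-15 cultures and 188 to 600 in controls. Without the replicate block, calls at 48 h fell to 2162 higher and 1370 lower (565 lower by at least 2-fold). The effect then differed in 163 genes against 24 h, 510 against 12 h and 1251 against 2 h, and 565 genes differed from 24 h in IL-15 cultures and 42 in controls. A replicate block for each animal and time gave 1172 genes against 24 h and 2886 against 12 h. The stricter filter, which tests 11128 genes, gave 610 higher and 472 lower by at least 2-fold. DESeq2 gave 861 genes against 24 h. Fits on single libraries gave 799 lower by at least 2-fold, and 778 with the token as a term. Limma called 0 genes between sexes. Some counts in 1 direction moved by over 1.5 times. With no filter, effects that were smaller or more negative numbered 74 against 24 h and 512 against 12 h, and 516 genes were lower since 24 h with IL-15. DESeq2 gave 451 genes lower since 24 h in controls. Without library number 3 of every animal and group, 506 effects were smaller or more negative than at 12 h. Without the 3 libraries that stood apart from their sisters, 271 were smaller or more negative than at 24 h. Apart from fewer genes or samples where a setting removes them, the cause was not tested. The 4 IDs kept their direction and call under each alternative that tested them. ENSMFAG00000046257 ranged most, from -6.66 to -4.11. ENSMFAG00000052498 was not tested under the stricter filter, and rhesus IDs were not matched. Depth limits the low genes most, with a median standard error of 0.49 on the log2 scale under 1 CPM.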
